A study of Rattus norvegicus with 6 samples.

Results

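The genes of steroid hormone synthesis that the gonads share with the adrenal gland were measured in the neonatal rat ovary after an immune challenge. They were chosen by name, and 10 were listed: Star, Cyp11a1, Fdx1, Fdxr, Hsd3b1, Cyp17a1, Hsd17b1, Hsd17b7, Srd5a1 and Cyp19a1. Of these, 9 had a named probe, among 26903 gene names on the arrays. Cyp19a1, which encodes aromatase, had no matched probe and was not analysed here. Srd5a1 was represented by 2 probes, Fdx1 by 1 probe with 10 spots, and the other genes by 1 probe each. On all 6 arrays these 10 probes gave signals well above background.

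The samples were ovaries of female Wistar rats, collected on postnatal day (PND) 7. On PNDs 3 and 5 the pups had been injected intraperitoneally with 0.05 mg/kg lipopolysaccharide (LPS), a bacterial cell wall component, or with the same volume of saline. RNA of each sample was hybridized to a single-color Agilent array, with 3 arrays for each treatment. The study gave each treatment to whole litters, so differences between litters cannot be told apart from those between treatments. It drew the ovaries of each treatment from more animals than there were arrays and from more than 1 litter. An array may thus hold tissue of several pups, and a p-value here measures only the spread between arrays. In RNA from whole ovaries, fewer cells of a type and less RNA per cell cannot be told apart. Each value below is a log2 signal from which the 75th percentile of the same array was subtracted, so a value of 0 is the level of the 75th percentile and 1 unit is a 2-fold difference. Values of different probes cannot be compared with each other, since each probe binds its target with its own efficiency.

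Steroid hormones are made from cholesterol in a fixed order of steps. StAR brings cholesterol to the inner mitochondrial membrane, where the enzyme encoded by Cyp11a1 cuts its side chain to give pregnenolone, with electrons passed on by the products of Fdxr and Fdx1. Hsd3b1 and Cyp17a1 then lead to progesterone and to androgens, and aromatase and the 17-beta-hydroxysteroid dehydrogenases to estrogens. The adrenal cortex runs the same first steps toward corticosterone, while in the ovary they belong to theca and interstitial cells and, in growing follicles, to granulosa cells. In the first days of life the rat ovary holds mostly primordial and early growing follicles.

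Upstream sequences of 4 of these genes are shown because their windows held a motif that was searched. Of these, Cyp11a1, Fdx1 and Hsd3b1 were highest on the same 2 saline arrays, and Hsd17b7 varied little. The windows of Fdxr and Srd5a1, genes that were also highest on those 2 saline arrays, held none of the motifs. They are the 250 bases before the annotated start, from RefSeq on the GRCr8 assembly, written 5′ to 3′ on the strand of the gene. They lie at chr8:67318415-67318664, plus strand (Cyp11a1), chr8:61183646-61183895, minus strand (Fdx1), chr2:188864695-188864944, minus strand (Hsd3b1) and chr13:84722755-84723004, minus strand (Hsd17b7). Capitals mark AGGTCA, the core of the site bound by the steroidogenic factor Nr5a1, in Cyp11a1 and Fdx1, a GATA motif (TGATAA, here on the opposite strand) in Hsd3b1, and TGACG, part of the cyclic AMP response element, in Hsd17b7.
Cyp11a1: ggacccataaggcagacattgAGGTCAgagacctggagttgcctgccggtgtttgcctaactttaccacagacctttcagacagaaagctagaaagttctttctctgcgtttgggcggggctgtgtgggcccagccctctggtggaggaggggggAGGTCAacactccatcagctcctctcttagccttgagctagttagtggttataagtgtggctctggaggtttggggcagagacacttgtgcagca
Fdx1: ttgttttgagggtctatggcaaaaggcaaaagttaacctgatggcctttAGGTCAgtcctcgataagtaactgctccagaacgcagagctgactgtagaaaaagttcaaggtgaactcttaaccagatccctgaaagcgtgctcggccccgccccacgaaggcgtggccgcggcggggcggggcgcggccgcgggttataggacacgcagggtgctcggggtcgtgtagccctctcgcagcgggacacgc
Hsd3b1: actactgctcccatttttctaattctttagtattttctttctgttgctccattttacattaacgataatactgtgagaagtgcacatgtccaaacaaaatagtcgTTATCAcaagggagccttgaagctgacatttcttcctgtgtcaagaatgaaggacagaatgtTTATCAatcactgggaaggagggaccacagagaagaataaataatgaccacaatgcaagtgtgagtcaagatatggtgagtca
Hsd17b7: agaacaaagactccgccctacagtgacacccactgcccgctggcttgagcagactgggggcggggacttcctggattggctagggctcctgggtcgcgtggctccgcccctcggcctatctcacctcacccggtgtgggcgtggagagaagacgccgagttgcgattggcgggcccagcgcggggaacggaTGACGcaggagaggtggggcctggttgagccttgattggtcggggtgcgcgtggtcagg
All motifs were searched on both strands, and no matches overlapped. The letters AGGTCA were found in the windows of Cyp11a1 (at 229 to 224 and 95 to 90 bases before the start) and Fdx1 (201 to 196), which makes 2 of the 6 genes with a sequence, and in 14.1% of 33469 promoters. The other 4 windows did not hold them. TGATAA occurred in 1 of the 6 (Hsd3b1, at 145 to 140 and 83 to 78 bases) and in 7.97% of promoters. TGACG occurred in 1 of the 6 (Hsd17b7, at 59 to 55 bases) and in 18.2% of promoters. AGATAA, found in 10.3% of promoters, and TATAAA, found in 12.9%, occurred in 0 of the 6. These matches are a description of the letters and were not tested for binding.

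The treatments overlapped for all of the genes but 1, Fdxr, and 2 of the saline arrays stood apart from the other 4 arrays. Saline replicates 2 and 3 were at least 2-fold above both saline replicate 1 and every LPS array for 6 of the 9 genes (Star, Cyp11a1, Fdx1, Fdxr, Hsd3b1 and Srd5a1), compared with 1.5% of the 16295 gene names well above background on all arrays. The same 2 arrays had the highest levels of transcripts typical of the adrenal gland. The summed linear level of 7 adrenal cortex markers was 0.805 to 1.67 in the LPS group and 1.35 in saline replicate 1, but 165 and 221 in saline replicates 2 and 3. That of 9 adrenal medulla markers was 3.15 to 5.55, 5.97, and 86.8 and 56.3, in the same order. Of the 7 cortex markers, Cyp11b1, Akr1b7 and Mc2r were well above background on saline replicates 2 and 3 but on no other array. Cyp11b2 reached that level on these 2 and on 1 LPS array. Cyp21a1, Mrap and Cyp11b3 reached it on each of the 6 arrays. All 7 cortex and 9 medulla markers were at least 2-fold higher on saline replicates 2 and 3 than on the other 4 arrays. The part of these transcripts in the differences below was not tested, so the comparison is given with and without these arrays. Granulosa and oocyte markers were present on all 6 arrays, with summed levels of 22.6 to 84.2 and 17.1 to 47.4.

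**Figure D1:**
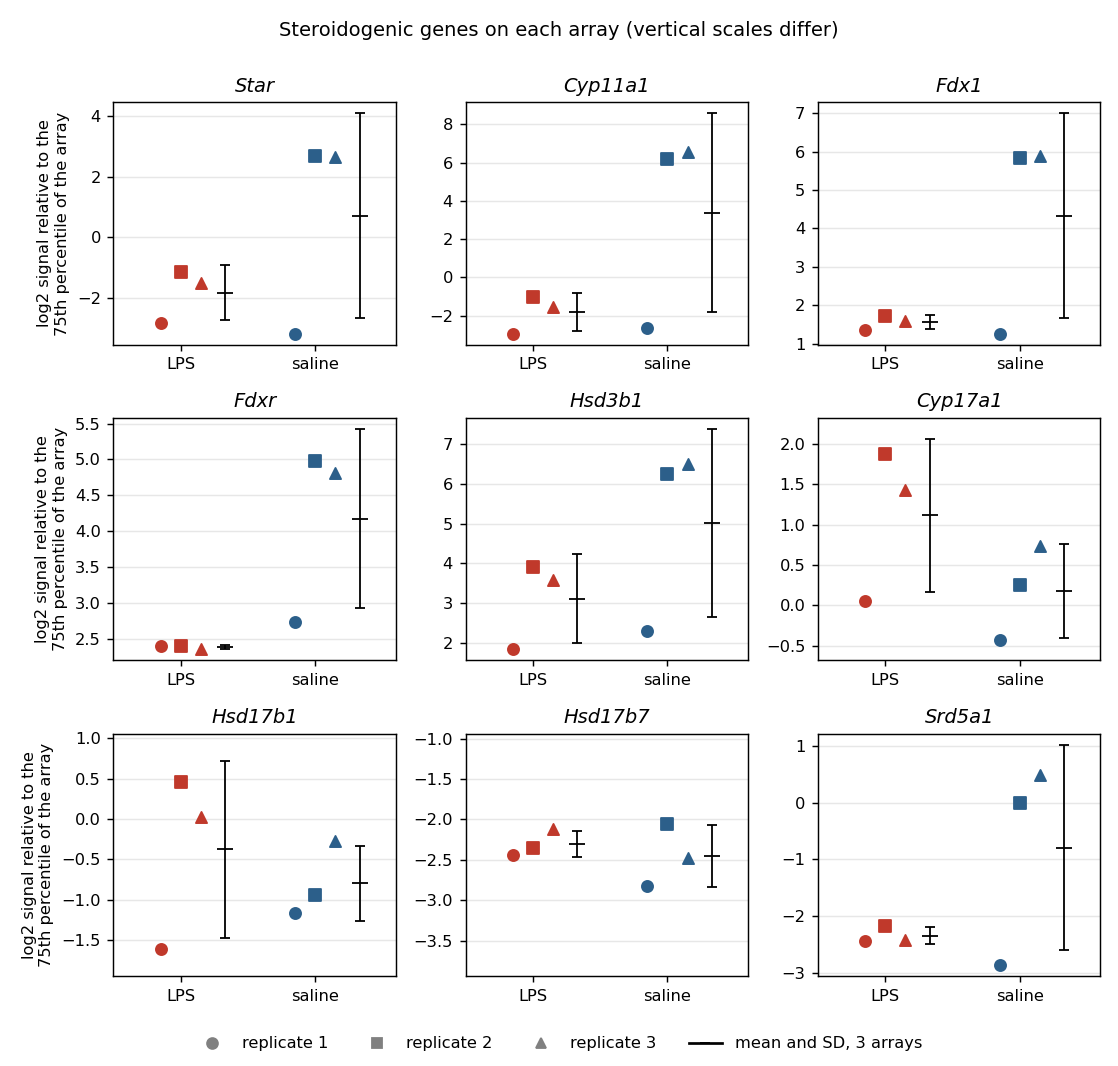
Log2 signal, with the 75th percentile of each array at 0 (vertical axes, scales differ) of the 9 genes on each LPS (red) and saline (blue) array, with marker shape giving the replicate number and bars the mean and SD of 3 arrays. In the panels of Star, Cyp11a1, Fdx1, Fdxr, Hsd3b1 and Srd5a1, saline replicates 2 and 3 sit at least 2-fold above the other 4 arrays, and in those of Cyp17a1, Hsd17b1 and Hsd17b7 they do not.

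Cholesterol delivery and side-chain cleavage showed the widest contrast between the saline arrays. Star had log2 signals of -2.84, -1.14 and -1.50 on LPS replicates 1, 2 and 3, and of -3.18, 2.69 and 2.63 on saline replicates 1, 2 and 3. Its lowest value was that of saline replicate 1, so the groups overlapped, while saline replicates 2 and 3 were 14.2-fold and 13.7-fold above the highest of the other 4 arrays. The log2 fold change, LPS minus saline throughout, was -2.54 with a standard error (SE) of 1.57 (limma adjusted p = 0.530). Cyp11a1, the side-chain cleavage gene, had log2 signals of -2.94, -1.01 and -1.54 on the LPS arrays and of -2.63, 6.17 and 6.58 on the saline arrays. Saline replicate 1 lay inside the range of the LPS arrays, and saline replicates 2 and 3 were 145-fold and 192-fold above the highest of the other 4, the widest gap among the 9 genes. Its log2 fold change was -5.20 (SE 2.37, limma adjusted p = 0.336). Neither Star nor Cyp11a1 passed the test, given the spread between the saline arrays.

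The electron carriers of the cleavage reaction followed the same arrays. Fdx1, which encodes ferredoxin, had log2 signals of 1.36, 1.73 and 1.61 on the LPS arrays and of 1.27, 5.84 and 5.89 on the saline arrays. Saline replicate 1 was again the lowest of the 6, and saline replicates 2 and 3 were 17.4-fold and 18.0-fold above the highest of the others. The log2 fold change was -2.77 (SE 1.20, limma adjusted p = 0.314). Fdxr, which encodes the reductase that feeds ferredoxin, had log2 signals of 2.40, 2.40 and 2.35 on the LPS arrays and of 2.74, 4.98 and 4.81 on the saline arrays. Here the lowest saline array exceeded the highest LPS array (two-sided exact permutation test, p = 0.1, which is the lowest value possible with 3 arrays in each group). Fdxr was 1 of 9 genes with this order, which was found for 18.2% of all gene names and for 5.88% of those well above background on all arrays. Its log2 fold change was -1.79 (SE 0.58, limma adjusted p = 0.271), and its unadjusted limma p was 0.0185.

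The study names a 2-fold difference and a p under 0.05 as its criterion, applied here to the unadjusted limma p. Fdxr was the 1 gene of 9 that was lower after LPS by this criterion, compared with 1.03% of 26903 gene names and 0.902% of those well above background on all arrays. By the same criterion 0 of the 9 were higher (0.539% of gene names), and 0 had LPS arrays that all exceeded the saline arrays (4.67%). After adjustment 0 of the 9 had a p under 0.05 in limma (0% of gene names) or in the methods' t-test, which stands for the analysis of variance that the methods name for the data in general (they name no test for the arrays). At an unadjusted p under 0.05 without a limit on the fold change, 1 of the 9 passed in limma, compared with 15.9% of gene names. The median log2 fold change was -1.79 over the 9 genes and -0.04 over all gene names. It was negative for 6 of the 9, and for 15019 of the 26903 gene names. For replicate numbers 1, 2 and 3, the log2 signal of Fdxr differed between LPS and saline by -0.33, -2.58 and -2.46. The difference within number 1 was thus the smallest, and without saline replicates 2 and 3 the log2 fold change of Fdxr was -0.35 (SE 0.24, limma adjusted p = 0.864).

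Hsd3b1, whose product converts pregnenolone to progesterone, had log2 signals of 1.84, 3.91 and 3.58 on the LPS arrays and of 2.30, 6.26 and 6.50 on the saline arrays. Saline replicate 1 lay between LPS replicate 1 and the other LPS arrays, and saline replicates 2 and 3 were 5.08-fold and 6.04-fold above the highest of the other 4. The log2 fold change was -1.91 (SE 1.18, limma adjusted p = 0.529). The rat genome carries several near-identical Hsd3b genes, and the signal of this probe may be shared with them. The probe named Hsd3b3 and the brighter one named Hsd3b5 had log2 fold changes of -2.29 and -2.52. Both were also at least 2-fold higher on saline replicates 2 and 3 than on the other arrays. Another probe named Hsd3b5 was well above background on no array, differed by -0.65 (SE 0.21) and did not show this gap.

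Srd5a1, which encodes the enzyme that reduces testosterone to dihydrotestosterone and also progesterone, had log2 signals of -2.44, -2.17 and -2.41 at its brighter probe on the LPS arrays. On the saline arrays the values were -2.86, 0.00 and 0.48. The 3 LPS arrays were close together, saline replicate 1 lay below them, and saline replicates 2 and 3 were 4.49-fold and 6.29-fold above the highest of the other 4. The log2 fold change was -1.55 (SE 0.82, limma adjusted p = 0.428). The dimmer probe was also highest on saline replicates 2 and 3, with log2 signals of -3.91, -3.60 and -3.77 on the LPS arrays and of -3.90, -2.93 and -2.74 on the saline arrays. Its difference was smaller, at -0.57 (SE 0.32, limma adjusted p = 0.473). At this probe saline replicate 1 lay between LPS replicates 1 and 3.

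The genes of androgen and estrogen synthesis behaved differently. Cyp17a1, whose product makes androgen precursors and marks theca cells in the ovary, had log2 signals of 0.05, 1.87 and 1.42 on the LPS arrays and of -0.43, 0.25 and 0.73 on the saline arrays. Saline replicates 2 and 3 lay between LPS replicate 1 and the other LPS arrays, and the groups overlapped. The rat adrenal cortex, which makes corticosterone, largely lacks this enzyme. The log2 fold change of Cyp17a1 was 0.94 (SE 0.52, limma adjusted p = 0.457). The LPS array was above the saline array of the same number in all 3 pairs, by 0.48, 1.62 and 0.70 on the log2 scale, as was so for 16.7% of gene names well above background on all arrays.

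Hsd17b1, which converts estrone to estradiol in granulosa cells, had log2 signals of -1.61, 0.46 and 0.03 on the LPS arrays and of -1.17, -0.94 and -0.27 on the saline arrays. The saline arrays lay within the range of the LPS arrays, and the log2 fold change was 0.42 (SE 0.55, limma adjusted p = 0.866). Hsd17b7, an enzyme of both estradiol and cholesterol synthesis, had log2 signals of -2.44, -2.36 and -2.12 on the LPS arrays and of -2.82, -2.05 and -2.48 on the saline arrays. The groups overlapped here too, and the log2 fold change was 0.14 (SE 0.24, limma adjusted p = 0.911). Its value on saline replicate 1 is the least certain of those given, because the 2 spots of the probe differed there by 1.04 on the log2 scale, while the median difference between spots of the same probe was 0.06 over the probes of these genes.

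For Star, Cyp11a1, Fdx1, Fdxr, Hsd3b1 and Srd5a1 the difference depended on which saline arrays were kept. Without saline replicate 1, these 6 of the 9 genes were lower by the 2-fold criterion, compared with 2.45% of gene names in that fit. The 2 saline arrays left are those with the highest levels of the adrenal transcripts. These 6 genes were named above because both of those arrays exceeded all others by at least 2-fold. Their calls in that fit follow from this pattern and are not separate evidence. Of the 9, 5 had a limma adjusted p under 0.05, compared with 0.918% of gene names. The log2 fold changes were then -4.49 for Star (adjusted p = 0.0245 from limma), -8.20 for Cyp11a1 (adjusted p = 0.00381), -4.30 for Fdx1 (adjusted p = 0.00120), -2.51 for Fdxr (adjusted p = 0.00350) and -2.58 for Srd5a1 (adjusted p = 0.00971). Hsd3b1, at -3.27, had an adjusted p of 0.143 in limma. Without saline replicates 2 and 3 together, which leaves 1 saline array that is assumed to vary like the LPS arrays, the sign turned for Star (1.36, SE 0.73), Cyp11a1 (0.80, SE 0.80), Hsd3b1 (0.81, SE 0.89), Fdx1 (0.30, SE 0.28) and Srd5a1 (0.52, SE 0.26). By the criterion 0 of the 9 were lower in that comparison, and likewise without saline replicate 2 or saline replicate 3 alone. Cyp17a1 kept a positive difference with either set of arrays, 0.63 without saline replicate 1 and 1.55 without saline replicates 2 and 3.

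**Figure D2:**
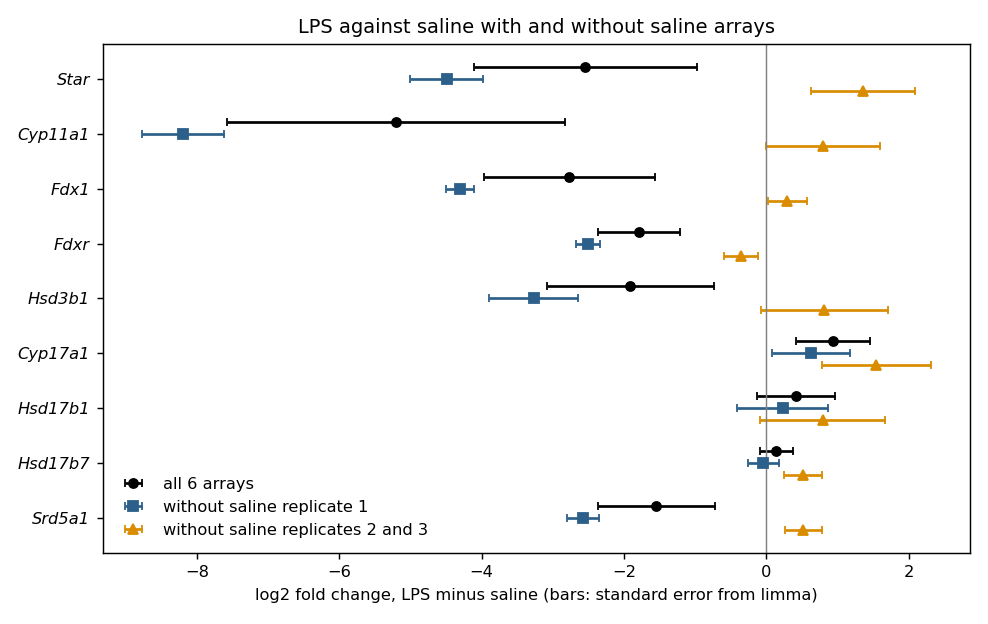
Log2 fold change of LPS against saline (horizontal axis) with its standard error from limma for the 9 genes, from all 6 arrays (circles), without saline replicate 1 (squares) and without saline replicates 2 and 3 (triangles). For Star, Cyp11a1, Fdx1, Hsd3b1 and Srd5a1 the squares lie below 0 and the triangles above it, and for Cyp17a1 all 3 lie above 0.

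The LPS arrays differed among themselves at several of the genes. LPS replicate 1 was at least 2-fold below LPS replicates 2 and 3 for 5 of the 9 genes (Star, Cyp11a1, Hsd3b1, Cyp17a1 and Hsd17b1), compared with 1.89% of gene names well above background on all arrays. The highest and lowest LPS arrays were 3.25-fold apart for Star, 3.79-fold for Cyp11a1, 4.21-fold for Hsd3b1, 3.52-fold for Cyp17a1 and 4.21-fold for Hsd17b1. They were 1.29-fold apart for Fdx1, 1.04-fold for Fdxr, 1.21-fold for Srd5a1 and 1.24-fold for Hsd17b7. The same gap below LPS replicates 2 and 3 was found for 5 of 9 granulosa markers and 6 of 9 oocyte markers, whose summed level on LPS replicate 1 was 22.6 and 17.1, against 59.4 to 84.2 and 38.8 to 47.4 on LPS replicates 2 and 3. It was found for 0 of 7 adrenal cortex and 0 of 9 medulla markers. Of these, 3 cortex and 4 medulla markers were well above background on no LPS array, so they could hardly show such a gap. The part of this gap in the values of the steroidogenic genes was not tested. Saline replicate 1 lay below the range of the LPS arrays for 5 of the 9 genes, within it for 3 and above it for 1, Fdxr. The share of all gene names with these positions was not taken, so these counts have no such measure beside them. Without LPS replicate 1, Cyp17a1 (log2 fold change 1.47, SE 0.37, limma adjusted p = 0.196) and Hsd17b1 (1.04, SE 0.32, adjusted p = 0.196) passed the criterion as higher, 2 of the 9 genes, compared with 0.966% of gene names in that fit.

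On the slide, LPS replicate 1 shared a row with the 3 saline arrays, and the other LPS arrays had a row of their own. With the row as a block, only LPS replicate 1 is compared with the saline arrays, and the difference was -0.13 for Cyp17a1 and -0.82 for Hsd17b1 on the log2 scale, a turn in sign for both. For Star, Cyp11a1, Fdx1, Fdxr, Hsd3b1 and Srd5a1 it stayed negative, from -6.31 to -1.65, and 0 of the 9 passed the criterion. With the replicate number as a block, the count of lower genes was 4 in place of 1 (Cyp11a1, Fdx1 and Hsd3b1 beside Fdxr), compared with 1.22% of gene names under the same block. The adjusted p-values under that block were 0.204, 0.221, 0.177 and 0.184 in limma for Cyp11a1, Fdx1, Hsd3b1 and Fdxr, and that of Cyp17a1 was 0.188, with an unadjusted limma p of 0.0212 and a difference just under 2-fold.

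**Figure D3:**
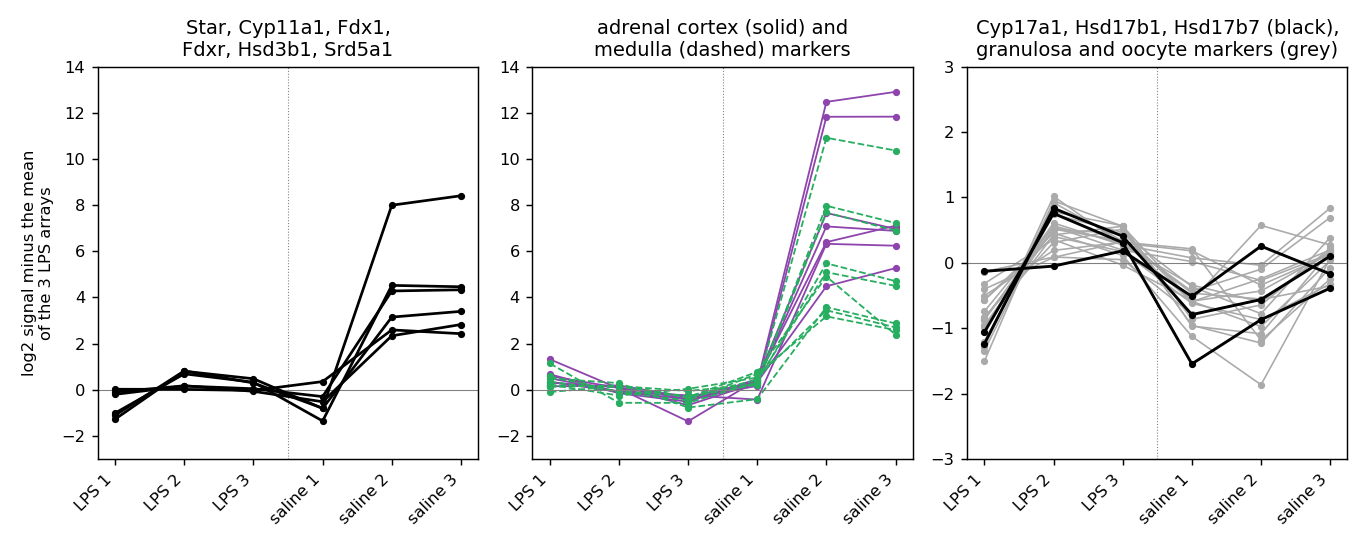
Log2 signal minus the mean of the 3 LPS arrays (vertical axis, narrower in the right panel) on each of the 6 arrays, for 6 of the steroidogenic genes (left), for 7 adrenal cortex and 9 medulla markers (middle), and for Cyp17a1, Hsd17b1 and Hsd17b7 beside 9 granulosa and 9 oocyte markers (right), with 1 line per gene. The genes on the left and in the middle are high on saline replicates 2 and 3, and those on the right are not, while most lines on the right and 3 on the left are low on LPS replicate 1.

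Across the 6 arrays the members fell near different genes. Likeness was measured as the root mean square difference between 2 genes' log2 profiles, each centered on its own mean, over 6 arrays and 10003 candidate gene names, and is a description. The candidates were well above background on all 6 arrays, so genes dim on any array could not appear. The difference is not scaled, so a gene with a wide range lies far from most others. Hsd3b1 was nearest to Nr5a1 (0.18), the transcription factor that drives many steroidogenic genes, and to Scarb1 (0.25), the receptor that takes up cholesterol from high-density lipoprotein, followed by Flvcr2 (0.26), Plbd1 (0.28) and Nr0b2 (0.31). Star was nearest to Hsd3b5 (0.22) and Hsd3b3 (0.36), then Pcsk1n (0.57), Aldh1l1 (0.74) and Flvcr2 (0.75). For Cyp11a1, which had the widest gap between arrays, the closest candidate was Mgarp (0.70), a mitochondrial protein gene. The adrenal genes Mrap (1.21) and Cyp21a1 (1.30) came next, then Hsd3b5 (1.75) and Hsd3b3 (1.80).

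Among the members themselves, the closest pairs were Cyp17a1 and Hsd17b1 (0.30), Fdxr and Srd5a1 (0.40), and Star and Fdx1 (0.60), while Cyp17a1 and Cyp11a1 were far apart (4.08). Over 78 listed genes well above background on all arrays, chosen for naming after the values were seen, Hsd17b1 was nearest to Gata4 (0.10) and to the oocyte gene Gdf9 (0.10), and Cyp17a1 to Gdf9 (0.33) and Gata4 (0.34). Fdxr was nearest to Ddc (0.33), an enzyme of catecholamine synthesis, and Soat1 (0.36), which stores cholesterol as esters. Fdx1 was nearest to the nuclear receptor gene Nr0b1 (0.42), and to Pnmt (0.45), the adrenaline-forming enzyme of the adrenal medulla.

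Other genes of the pathway were counted from lists. Of 25 other steroid-converting enzymes with a probe, 1 was lower by the criterion and none was higher, with a median log2 fold change of -0.24. The 1 gene was Sts, which removes sulfate from steroids, with log2 signals of -2.65, -2.96 and -3.07 on the LPS arrays and of -2.63, -1.36 and -1.54 on the saline arrays (log2 fold change -1.05, SE 0.35, limma adjusted p = 0.271). Saline replicate 1 lay just above LPS replicate 1. Of the 25, 5 (Sts, Hsd3b3 and Hsd3b5, with Cyb5a and Cyp1b1 named after their values were seen) were at least 2-fold above the other 4 arrays on saline replicates 2 and 3. Dim genes are those that no array of at least 1 treatment measured well above background. The bound of a gene dim in 1 treatment is the fold against the lowest signal well above background. With the 1 such gene at its bound and the 4 dim in both treatments left out, the median of this list was -0.21. Without saline replicate 1 the count was 7. It was 3 with the replicate block, and 0 with the row block or without LPS replicate 2, LPS replicate 3, saline replicate 2 or saline replicate 3. The row block also gave 1 higher gene.

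Of 15 genes that bring cholesterol to the mitochondrion, none passed the criterion in either direction, with a median of -0.12. The 3 largest differences were those of Scarb1 (-1.82, SE 1.07), Soat1 (-1.17, SE 0.65) and Plin2 (-0.99, SE 0.50), a lipid droplet coat protein. For these and Lipe (named after its values were seen), 4 of 15 genes, saline replicates 2 and 3 were at least 2-fold above the other arrays. The count of lower genes became 5 without saline replicate 1, and it was 1 with the replicate block and also without LPS replicate 1.

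Of 15 regulators, 1 was lower and none was higher, with a median of -0.23. The lower gene was Cebpb, a transcription factor, with log2 signals of 1.92, 1.53 and 1.55 on the LPS arrays and of 2.01, 3.51 and 3.23 on the saline arrays (log2 fold change -1.25, SE 0.40, limma adjusted p = 0.271). Nr0b1 (-2.25, SE 1.18), Nr5a1 (-1.64, SE 1.15) and Dlk1 (-1.34, SE 0.80) did not pass. For these 4 genes and Nr4a3 (named after its values were seen), 5 of the 15, saline replicates 2 and 3 were at least 2-fold above the other arrays. Without saline replicate 1 the count was 5. It was 3 with the replicate block, and 0 when saline replicate 2, saline replicate 3 or LPS replicate 2 was left out.

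Of 7 gonadotropin and sex steroid receptors, 1 was higher and none was lower, with a median of 0.61 (0.67 without Lhcgr, which was dim in both treatments). Without saline replicate 1, 2 receptors were higher, and 0 were so without LPS replicate 1, LPS replicate 3 or saline replicate 2. The higher gene was Esr1, which encodes estrogen receptor alpha, with log2 signals of -1.56, -2.49 and -2.03 on the LPS arrays and of -2.33, -3.77 and -3.13 on the saline arrays (log2 fold change 1.05, SE 0.41, limma adjusted p = 0.287). Saline replicate 1 overlapped the LPS arrays. Fshr, the receptor for follicle-stimulating hormone, and Esr2 had differences of 0.98 (SE 0.51) and 0.73 (SE 0.47), with Fshr well above background on 1 saline array and Esr2 on 2. Lhcgr, the receptor for luteinizing hormone that drives Star and Cyp17a1 in older ovaries, was well above background on no array. Prlr, named after its values were seen, was the 1 receptor at least 2-fold higher on saline replicates 2 and 3 than on the other 4 arrays.

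Theca and interstitial markers gave 1 higher gene of 7, Tcf21 (log2 fold change 1.08, SE 0.24, limma adjusted p = 0.271). Their median was 0.24 (0.27 without Lhcgr, which was dim in both treatments). Tcf21 did not pass without LPS replicate 1 or without saline replicate 2. Pdgfra (0.36, SE 0.23) and Acta2 (0.30, SE 0.31) did not pass. The summed level of the theca list was 16.7 to 20.1 in the LPS group and 20.0, 16.1 and 11.1 on saline replicates 1, 2 and 3. Bright probes such as that of Acta2 weigh most in this sum. The median log2 signal of the list was -1.26, -0.06 and -0.53 on LPS replicates 1, 2 and 3. On saline replicates 1, 2 and 3 it was -0.94, -0.95 and -0.67. By the sum saline replicates 2 and 3 were lowest, and by the median LPS replicate 1 was. Of 9 granulosa markers and 9 oocyte markers, none passed the criterion in either direction, with medians of 0.04 and 0.43. Without LPS replicate 1, 1 granulosa and 3 oocyte markers were higher, and without saline replicate 3, 1 granulosa marker was. With the row block 3 granulosa markers were lower. Kitlg, the granulosa ligand of the oocyte receptor Kit, differed by 0.57 (SE 0.18) at its brightest probe. Another Kitlg probe differed by -0.04 (SE 0.33), and one that was dim in both groups by -0.64 (SE 0.22). Amh, a product of growing follicles, differed by -0.29 (SE 0.59). All 9 oocyte markers had positive differences, as had 11884 of 26903 gene names. Bmp15 (0.75, SE 0.45), Ddx4 (0.63, SE 0.52) and Zp2 (0.60, SE 0.30) were the widest. Within replicate number 1 the difference was positive for Bmp15, Kit and Zp2. There it was negative for Gdf9, Zp1, Zp3, Nobox, Ddx4 and the brighter Dazl probe. In contrast 6 of 7 adrenal cortex and 8 of 9 medulla markers were lower at the criterion, with medians of -4.77 and -3.34, or -4.65 and -3.34 with dim genes at their bound. These counts were 7 and 9 without saline replicate 1 and 3 and 5 without LPS replicate 1, and lay at 0 for cortex and 1 to 3 for medulla markers without any other single array. With the row block and with the methods' t-test they were 0 and 0.

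**Figure D4:**
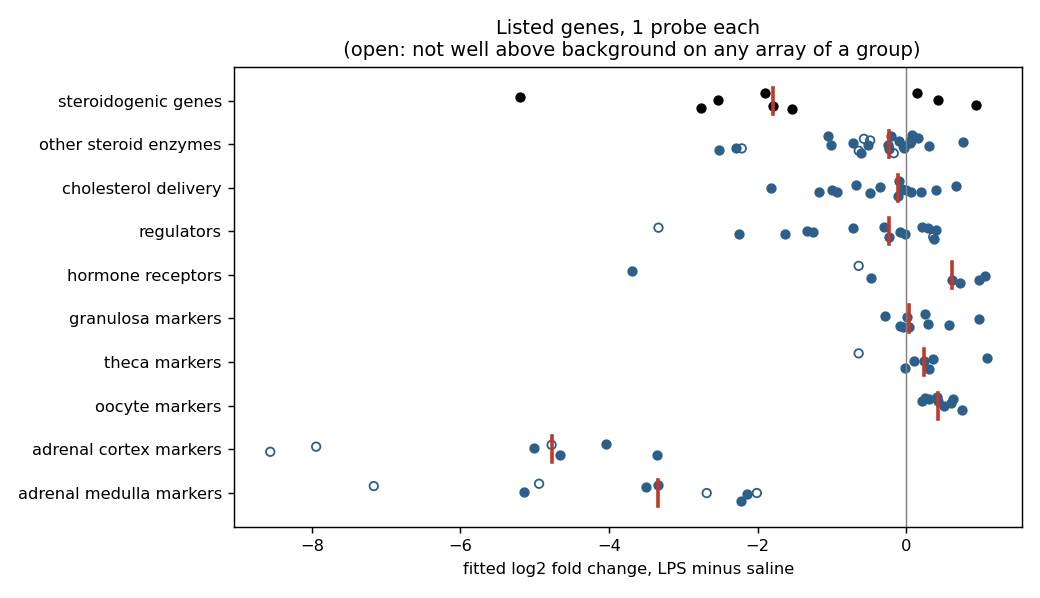
Fitted log2 fold change of LPS against saline (horizontal axis) for the 9 steroidogenic genes and for the other listed genes, with 1 point per gene, red bars at the median of each list, and open points for dim genes, which no array of at least 1 group measured well above background and whose fitted value is no measured fold. The steroidogenic genes, with a median of -1.79, ranged from -5.20 (Cyp11a1) to 0.94 (Cyp17a1). The medians were -4.77 and -3.34 for adrenal cortex and medulla markers, and 0.04, 0.24 and 0.43 for granulosa, theca and oocyte markers.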

How the data were processed

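The authors deposited, for each of 6 single-color arrays, spot intensity values from Agilent Feature Extraction 10.5.1.1, background-subtracted by the software, and a table of intensity values that equal the processed signal within 0.497%. The submitters' processing notes also name lumi. Here the log2 signal was scaled to the 75th percentile of its array. Spots flagged as outliers were removed, spots of a probe were averaged, and 30367 probes were tested with limma 3.58.1 in R 4.3.3, with Benjamini-Hochberg adjustment over all of them. The name column was empty, so genes were named through RefSeq accessions. The probe with the highest mean signal stood for a gene.

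The members and lists were chosen with earlier results of these data known. All members were named, and from each list the genes past the criterion and the 3 with the largest difference among genes that every array of a group measured well above background. The adrenal markers are given by counts. The procedure was tested on simulated data. Deviations from the group means correlated between arrays of the same replicate number (0.298, 0.215 and 0.254 for numbers 1, 2 and 3). Arrays of different numbers were not compared in this way, so these values cannot show that the numbers are paired. The labels give no pairing either, and the replicate block is only an alternative. The intensity of the arrays, of which 61.3% to 72.7% of probes were well above background, and their number limit the precision. The alternatives, 19 in all, covered background correction, scaling, flagged and dim spots, the authors' table, blocks, tests, the choice of probe and left-out arrays.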

Additional observations from a re-analysis of the deposited data

How the results depend on the processing

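The counts of genes at the 2-fold and unadjusted p criterion depended on the processing, and 8 of the 9 genes changed sign under at least 1 alternative. The count of lower genes, 1 of 9, was 4 with normexp background correction, 3 without scaling between arrays, 4 with the replicate block, and 0 with a block for the slide row, with the methods' t-test, with limma's trend (whose p-values were the same as those of the t-test, so that these are not separate evidence) and without saline replicates 2 and 3 together. Leaving out single arrays gave 0 to 6. Among all gene names the share that was lower was 1.22% with the replicate block and 2.45% without saline replicate 1. This share was not taken for the other alternatives, so their counts have no such measure beside them. Gene names at an unadjusted limma p under 0.05 numbered 4279 in the main fit. They numbered 1535 with normexp, 1527 without scaling and 1996 with the row block. The count of higher genes, 0, was 1 (Cyp17a1) without scaling between arrays, where the median log2 fold change of all probes was 0.34, and 0 to 2 when single arrays were left out. The count past an adjusted p under 0.05, 0, was 0 to 5 when single arrays were left out. Without saline replicates 2 and 3 together the log2 fold change turned to 1.36 for Star, 0.80 for Cyp11a1, 0.81 for Hsd3b1, 0.30 for Fdx1, 0.52 for Srd5a1 and 0.14 for its dimmer probe. With a block for the slide row it turned to -0.13 for Cyp17a1 and -0.82 for Hsd17b1, and without saline replicate 1 to -0.041 for Hsd17b7. Fdxr kept its sign under all 19 alternatives, from -2.51 to -0.35. The replicate block changed the call by the criterion for Cyp11a1, Fdx1 and Hsd3b1 and for no other gene of the 9. In the other lists, lower steroid enzymes were 0 with normexp and with the t-test, lower regulators 3 and 0, and higher receptors 0 and 0 (0 under quantile normalization and 3 without scaling). Higher theca markers were 0 with normexp, and lower cortex and medulla markers were 3 and 4 under quantile normalization and 3 and 5 with the filter on dim probes. Causes of these changes were not tested beyond the arrays left out. The number of arrays limits the precision, as the LPS arrays alone spanned up to 4.21-fold at a single gene of the 9.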
